A study of Mus musculus with 7 samples.

Results

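The 7 genes Grin1, Grin2a, Grin2b, Grin2c, Grin2d, Grin3a and Grin3b encode the subunits of the NMDA receptor, and they were taken by symbol from the 32285 genes of a single-nucleus RNA sequencing (snRNA-seq) experiment on the mouse posterolateral cortical amygdala (plCoA), an olfactory area of the amygdala. Their unique molecular identifiers (UMIs, 1 per captured RNA molecule) were summed over nuclei of each cell class in each replicate. Tissue of 2 domains was compared, the anterior (aplCoA) and the posterior (pplCoA), with 3 replicates each, and aplCoA replicate 1 was sequenced in 2 libraries whose nuclei were summed. All mice were C57BL6J males of 8 weeks, wild-type by the study's methods, and the labels name no treatment that differs between domains.

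What both domains shared bears on these genes as background. The animals were anaesthetised with ketamine, itself a channel blocker of NMDA receptors, and xylazine, and were perfused with a cold artificial cerebrospinal fluid before slicing. By the study's methods they had been housed singly in sensory deprivation for the day before. Each replicate is a pool of tissue from several mice, so values of single animals are not separable, and nuclei isolated from the frozen tissue were sorted on a DNA dye. Nuclei carry nuclear RNA, so the values describe transcripts in the nucleus and not receptor protein at synapses.

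An NMDA receptor is a tetramer that opens when glutamate and a co-agonist, glycine or D-serine, are bound while the membrane is depolarised, and the calcium it admits drives synaptic plasticity. GluN1, from Grin1, is the obligatory subunit. GluN2A to GluN2D, from Grin2a to Grin2d, bind glutamate and set how strongly magnesium blocks the channel and how slowly it closes, while GluN3A and GluN3B, from Grin3a and Grin3b, bind glycine and lower calcium entry. In the cortical forebrain GluN2A and GluN2B prevail in principal neurons, GluN2D is known from interneurons, and GluN2C from astrocytes.

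After filtering, 46389 nuclei remained in 7 libraries (4028 to 9705 each), with a median of 5160.5 to 6760 UMIs per nucleus by library, and pairs of libraries shared at most 0.385% of their barcodes. Clustering without the 7 genes gave 19915 glutamatergic neurons, 4913 GABAergic neurons, 9748 astrocytes, 3641 oligodendrocyte precursor cells (OPCs), 300 newly formed oligodendrocytes (NFOLs), 1531 mature oligodendrocytes (MOLs), 2783 microglia, 261 macrophages, 1858 vascular leptomeningeal cells (VLMCs), 1060 arachnoid barrier cells (ABCs) and 38 mural cells. A glutamatergic subcluster of 147 nuclei and a GABAergic one of 194 nuclei were left out of these classes because their leading genes held at least 3 markers of another class (Gad1 and Gad2 in the former, Flt1 and Cldn5 in the latter). All classes were named from their own markers. A separate gate on 2 markers per class gave the same name to 66.5% of the glutamatergic and 84.5% of the GABAergic nuclei, 80.1% of the OPCs and 58.1% of the astrocytes, the lowest share. It named 263 of the nuclei in the left-out subclusters GABAergic. Levels are in CPM, the usual scaling of a gene's UMIs to a common total in each class and replicate, as mean ± SD over 6 replicates unless stated.

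On the mm10 genome, Grin1 lies on chromosome 2 (25291181 to 25319187, minus strand), Grin2a on chromosome 16 (9567898 to 9995560, minus) and Grin2b on chromosome 6 (135713233 to 136173511, minus). Grin2c lies on chromosome 11 (115249169 to 115267243, minus), Grin2d on chromosome 7 (45831883 to 45878378, minus), Grin3a on chromosome 4 (49661611 to 49845744, minus) and Grin3b on chromosome 10 (79970715 to 79977190, plus). Whole gene bodies are given because intronic reads were counted, and their lengths range from 6.48 kb for Grin3b to 460 kb for Grin2b. Grin3a shares its strand with Ppp3r2 and Gm12459, and Grin2d with Gm22098, so reads in those stretches are uncertain. On the opposite strand Grin1os overlaps Grin1, and Gm14329, Gm22892, Gm14330 and Gm26653 overlap Grin2b.

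The obligatory subunit gene Grin1 was a neuronal transcript at a nearly even level. It stood at 297 ± 31.9 CPM in glutamatergic neurons, with a lowest value of 269, a median of 292 and a highest of 345, and at 249 ± 21.6 CPM in GABAergic neurons (lowest 229, median 242, highest 280). The non-neuronal classes lay far below, with 37.6 ± 8.5 CPM in OPCs, 23.4 ± 6.0 in astrocytes, 9.84 ± 6.3 in microglia and 7.39 ± 6.9 in ABCs, the lowest of the 9 classes compared. No neuronal replicate overlapped with any glial replicate.

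Grin2a and Grin2b, for the main GluN2 subunits of forebrain neurons, were the deepest counted members, with 368005 and 637623 UMIs in glutamatergic neurons. Grin2a reached 1414 ± 197 CPM there (lowest 1219, median 1384, highest 1709) and 1349 ± 151 CPM in GABAergic neurons (lowest 1196, median 1308, highest 1637). These ranges overlapped. Grin2b reached 2448 ± 247 CPM in glutamatergic neurons (lowest 2159, median 2408, highest 2770) and 1488 ± 35.6 CPM in GABAergic neurons (lowest 1439, median 1486, highest 1531), and these ranges did not overlap. Per kb of gene body, glutamatergic neurons held 10.6 CPM of Grin1, 5.32 of Grin2b, 3.31 of Grin2a, 0.709 of Grin3a and 0.336 of Grin2d. Per kb of exon the order of the first 3 turned, with 98.5 CPM of Grin2b, 78.8 of Grin2a and 30.7 of Grin1, so the order of these genes depends on how length is counted. As each UMI is 1 captured molecule, neither division makes the genes strictly comparable.

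The 2 genes parted in astrocytes. Grin2b stood at 426 ± 38.7 CPM in astrocytes, with all 6 replicates (365 to 472) above all those of microglia (39.4 to 131). Under the gate on 2 markers this order turned, with microglia at 1712 CPM of Grin2b and second to glutamatergic neurons, and 2854 of the nuclei that the gate named microglia had clustered as glutamatergic neurons against 2757 as microglia. Grin2a was at 28.8 ± 9.3 CPM in astrocytes against 26.7 ± 14 in microglia, and these ranges overlapped. In OPCs, Grin2b (62.3 ± 26.2 CPM) and Grin2a (25.6 ± 7.2 CPM) likewise overlapped with microglia, a class used here as the background because it is not known for these genes.

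Grin2c was an astrocyte gene in this tissue. It stood at 282 ± 20.7 CPM in astrocytes, from 250 to 311 over replicates, from 9749 UMIs. In the other 8 classes compared, its mean was at most 1.35 CPM, and glutamatergic neurons gave 149 UMIs among 266324058. Mural cells, too few to be compared, gave 5 UMIs in 38 nuclei (71.9 ± 138 CPM over replicates). Under the gate on 2 markers, the second class was NFOLs at 36.1 CPM against 255 in astrocytes. Per kb of gene body the astrocyte level was 15.6 CPM, above that of Grin1 in glutamatergic neurons, though without this division it was lower (282 against 297 CPM).

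Grin2d was low and led by GABAergic neurons. They held 42.0 ± 3.7 CPM (lowest 38.7, median 41.1, highest 48.9), OPCs 22.3 ± 3.2, VLMCs 16.3 ± 5.1, glutamatergic neurons 15.6 ± 3.0 and ABCs 12.0 ± 5.9, while microglia held 2.25 ± 1.5. All GABAergic replicates were above every replicate of OPCs and of glutamatergic neurons.

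Taken over whole classes, Grin3a had its highest mean outside neurons. Some astrocyte clusters and GABAergic subclusters, given below, stood above the OPC mean. OPCs held 601 ± 39.7 CPM (lowest 542, median 617, highest 634), astrocytes 343 ± 49.8 (261 to 392), GABAergic neurons 268 ± 26.3 (235 to 312), NFOLs 150 ± 55.5 (82.4 to 213) and glutamatergic neurons 130 ± 12.1 (110 to 144). Along the oligodendrocyte lineage it went from OPCs through NFOLs to 21.5 ± 10.3 CPM in MOLs, and no replicate of one stage overlapped with the next. Microglia stood at 8.05 ± 3.2 CPM. The dividing OPC cluster, 39 nuclei led by Top2a, had 467 CPM of Grin3a when its nuclei were pooled, against 598 CPM in the main OPC cluster.

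Grin3b, for the second GluN3 subunit, was at or near the floor throughout. Glutamatergic neurons gave 34 UMIs among 266324058, and the highest class mean was 1.42 ± 2.2 CPM in ABCs, which rested on 6 UMIs. Macrophages, mural cells and NFOLs gave none, which for NFOLs allows up to 1.73 CPM (3 counts of the class total). Because no class held it in 10% of nuclei, Grin3b entered no edgeR fit with the filter on low genes, and Grin2c entered only that of astrocytes.

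**Figure D1:**
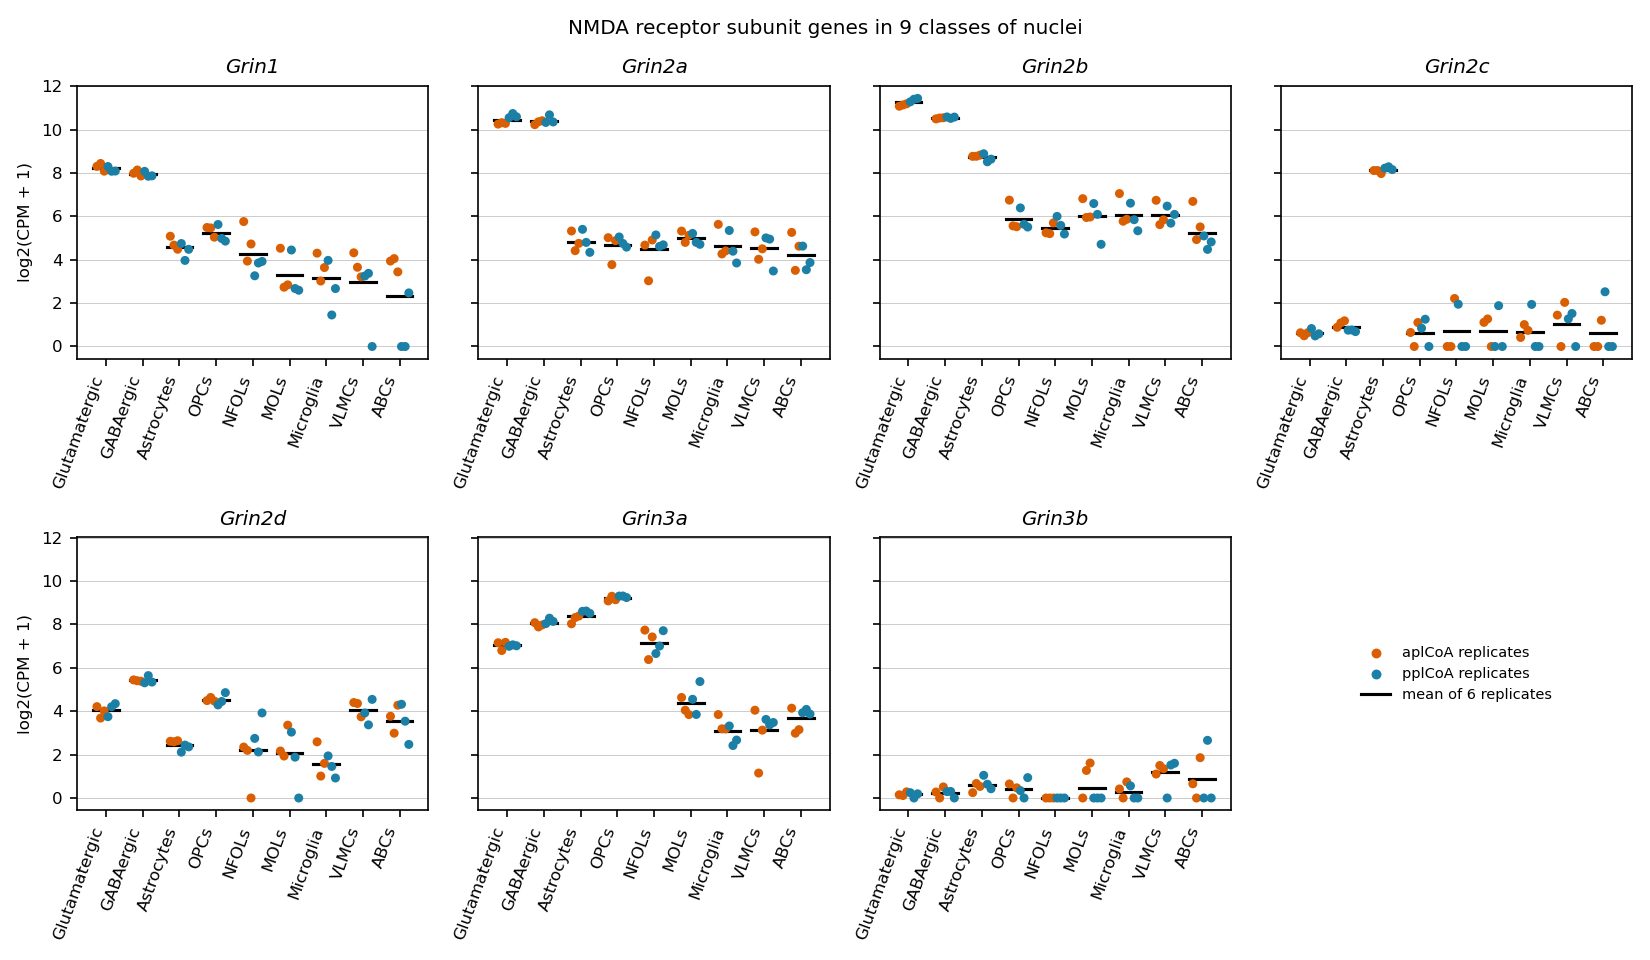
Levels of the 7 subunit genes in 9 classes of nuclei on a log2(CPM + 1) axis, 1 point per replicate, with marks for aplCoA and pplCoA. Grin1, Grin2a and Grin2b sit highest in both neuron classes, Grin2c in astrocytes, Grin3a in OPCs, and Grin3b near 0 in every class.

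Every neighbouring pair in the order of the 9 classes was compared within replicates by an exact sign-flip test on log2(CPM + 1), 56 pairs in all. With 6 replicates the smallest possible p is 0.0312, which 14 pairs reached, and after adjustment over the 56 pairs the smallest value was 0.125, so no pair passed 0.05. The 14 pairs, each with 1 order in all 6 replicates, included Grin2b in astrocytes above microglia, Grin2c in astrocytes above VLMCs, Grin2d in GABAergic neurons above OPCs, and Grin3a in OPCs above astrocytes. Neighbours that did not keep 1 order included Grin2a in glutamatergic above GABAergic neurons (4 of 6), and Grin3a in NFOLs above glutamatergic neurons (3 of 6).

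Single nuclei gave much the same picture after each was thinned to 2000 UMIs, except for Grin2a between the neuron classes. Thinning puts classes of unequal depth on 1 scale. Nuclei under 2000 UMIs were left out, namely 385 of 2783 microglia, 659 of 9748 astrocytes and 118 of 3641 OPCs. In neurons these were 71 of 19915 glutamatergic and 26 of 4913 GABAergic nuclei. At least 1 UMI of Grin2b was seen in 98% of glutamatergic and 93.0% of GABAergic nuclei, of Grin2a in 86.4% and 60.0%, and of Grin1 in 44.3% and 38.9%. Microglia, in which such UMIs are taken as free RNA, gave 13.1%, 5.3% and 2.03% for the 3 genes (median depths before thinning of 3182 UMIs in microglia, 12233 in glutamatergic and 7869 in GABAergic neurons). Grin2a was thus seen in a smaller share of GABAergic than of glutamatergic nuclei, although the summed levels of the classes overlapped.

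In glia the thinned share was 52.4% for Grin2b, 40.2% for Grin2c and 35.8% for Grin3a in astrocytes (median 3336.5 UMIs), and 65.8% for Grin3a in OPCs (median 3950 UMIs). The corresponding microglial shares were 13.1%, 0.209% and 1.61%. Grin2a in astrocytes (5.54%) and OPCs (5.11%), and Grin2b in OPCs (11.4%), were at or near the microglial share and are read as background. In barcodes under 100 UMIs, which hold free RNA, Grin2b stood at 1123 to 1429 CPM, Grin2a at 576 to 893, Grin3a at 116 to 157 and Grin2c at 17.4 to 30.7.

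The first comparison was between the neuron classes. GABAergic neurons had more Grin2d and Grin3a and less Grin1 and Grin2b than glutamatergic neurons of the same pools, and a smaller difference in Grin2a. In a fit of all genes by edgeR with the pool as a block, the log2 fold change (GABAergic minus glutamatergic) was 1.27 ± 0.09 (SE) for Grin2d, adjusted p 2.14e-06, and 0.88 ± 0.05 for Grin3a, adjusted p 7.82e-07. It was −0.41 ± 0.03 for Grin1, adjusted p 5.41e-06, and −0.87 ± 0.06 for Grin2b, adjusted p 1.38e-06. All 5 tested members passed 0.05, where 73.2% of all 9701 genes did (38.4% higher and 34.8% lower).

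Grin2a was the exception among the 5. Its log2 fold change was −0.22 ± 0.06 in the same fit (adjusted p 0.00671 by edgeR), −0.23 with adjusted p 0.0965 without the pool as a block, and −0.06 with adjusted p 0.372 when libraries were scaled by total UMIs without the TMM (trimmed mean of M-values) factor. That scaling moved the median of all genes from 0.03 to 0.19, and the split of calls from 3729 higher and 3376 lower to 5292 and 2403. The ratio of Grin2a to Grin2b UMIs needs no scaling. It was 0.534 to 0.634 in glutamatergic and 0.831 to 1.12 in GABAergic replicates, without overlap, a log2 difference of 0.65 in 6 of 6 pools (exact sign-flip test, two-sided, p 0.0312, the smallest possible, and 0.188 adjusted over 6 ratio comparisons).

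The second comparison was within glutamatergic neurons, between nuclei with a UMI of the vesicular transporter gene Slc17a6 (VGluT2) and none of Slc17a7 (VGluT1), and the reverse. The numbers were 2591 Slc17a6 nuclei (median 9578 UMIs) and 12783 Slc17a7 nuclei (median 13473 UMIs). Slc17a6 nuclei were spread unevenly, with 1467, 242 and 606 in the aplCoA pools and 212, 39 and 25 in the pplCoA pools. They had less Grin2a and Grin2b in 6 of 6 pools, more Grin2d in 5 and more Grin3a in 4, while Grin1 was close.

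Grin2a in Slc17a6 nuclei was 662, 664 and 700 CPM in aplCoA and 722, 1171 and 1171 CPM in pplCoA. In Slc17a7 nuclei it was 1481, 1470 and 1468 CPM in aplCoA and 1586, 1744 and 1564 CPM in pplCoA. All 6 Slc17a6 values lay under all 6 Slc17a7 values, and the 2 highest came from the pools with 39 and 25 nuclei. The edgeR log2 fold change (Slc17a6 minus Slc17a7) was −1.03 ± 0.12, adjusted p 2.17e-05.

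Grin2b was 1813 ± 158 CPM (1584 to 1994) against 2574 ± 156 CPM (2411 to 2798), again without overlap, with an edgeR log2 fold change of −0.61 ± 0.06 and adjusted p 8.75e-06. Grin2d was 23.6 ± 6.8 against 13.1 ± 4.0 CPM and Grin3a 198 ± 74.9 against 108 ± 27.3 CPM, and the ranges of both overlapped. In pplCoA pool 3 both were lower in Slc17a6 nuclei (11.4 against 18.6 CPM of Grin2d and 79.6 against 131 of Grin3a), and in pplCoA pool 2 so was Grin3a (130 against 135 CPM), and these are the pools with 25 and 39 Slc17a6 nuclei. The edgeR log2 fold changes of Grin2d and Grin3a were 1.08 ± 0.13 (adjusted p 4.49e-05) and 0.94 ± 0.23 (adjusted p 0.0059). Grin1, 289 ± 36 against 299 ± 33.7 CPM, missed the threshold at −0.15 ± 0.06 (adjusted p 0.0551 by edgeR), though DESeq2 called it at −0.17 (adjusted p 0.00529), as did edgeR with pplCoA pool 3 left out (−0.15, adjusted p 0.0449). In all, 4 of 5 members passed, where 48.5% of 9816 genes did (26.2% higher and 22.3% lower, 2571 and 2190 genes, or 4011 and 1551 without the TMM factor, which moved the median of all genes from 0.03 to 0.15).

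**Figure D2:**
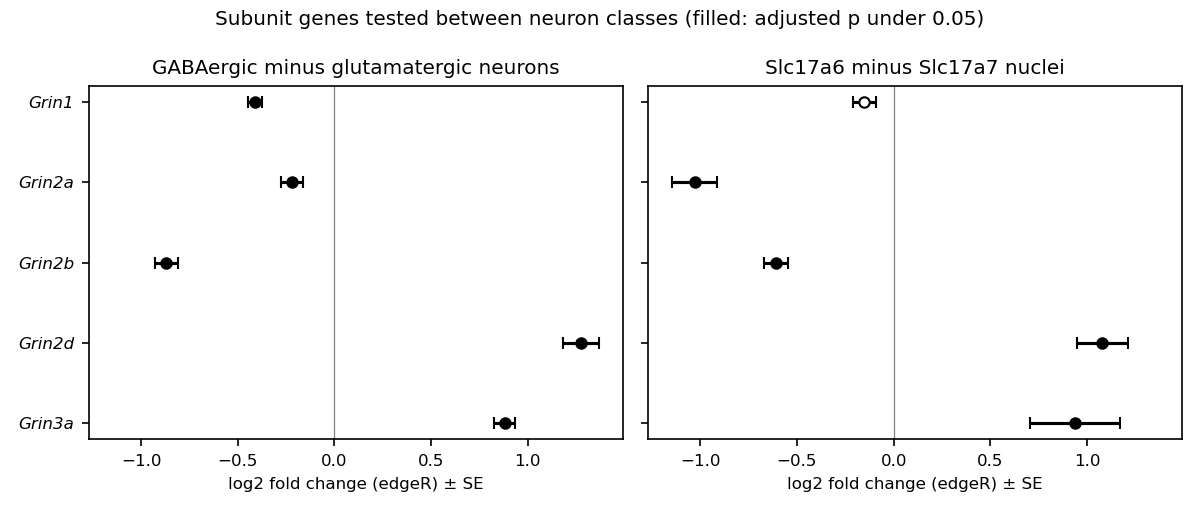
Fitted log2 fold changes (edgeR, points with ± 1 SE) of the 5 tested subunit genes between GABAergic and glutamatergic neurons and between Slc17a6 and Slc17a7 nuclei, with filled points for adjusted p under 0.05. Grin2d and Grin3a lie to the right of 0 and Grin1, Grin2a and Grin2b to the left in both contrasts, and the point of Grin1 between the transporter kinds is open.

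Nuclei with both transporters (2551, median 13284 UMIs) and with neither (1990, median 7826.5 UMIs) fell between the kinds for Grin2a, at 1273 ± 195 and 1105 ± 246 CPM. For Grin2b they held 2395 ± 312 and 2114 ± 278 CPM. Grin1 was 289 ± 27.5 and 296 ± 45.9 CPM, in the range of the other kinds. A UMI threshold sets these kinds, so shallow nuclei fall more often into the last one.

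Subclusters of glutamatergic neurons, 25 in number and made without the 7 genes, are described without a test. Pooled over nuclei, Grin2a was 233 to 1403 CPM in the 12 subclusters with at least 73.2 CPM of Slc17a6 and 1108 to 1977 CPM in the 13 with at most 25.5 CPM, a division chosen after the values were seen. The 4 subclusters led by Rxfp1 and Foxp2, by Vwa5b1, by Ebf1 and Meis1, and by Ebf2, all on the first side, held 612, 607, 654 and 638 CPM. The lowest Grin2a (233 CPM) and Grin2b (627 CPM) were in 158 nuclei led by Ndnf and Trp73, whose median of 3753 UMIs was far under the class median. Grin3a ranged more widely, from 19 CPM in a Moxd1 subcluster that was almost wholly of pplCoA to 502 CPM in the Ebf2 subcluster and in 47 nuclei led by Npsr1. Grin1 kept between 184 and 351 CPM in all 25.

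GABAergic subclusters, 19 in number, differed still more in Grin2a. The 3 Lamp5-like subclusters (Lamp5 marks neurogliaform-type interneurons) held 4212, 3840 and 3223 CPM pooled, and in each of them all 6 replicates were above the rest of the class, as in the first of them at 4300 ± 457 against 1000 CPM. Subclusters led by D030068K23Rik and by Pax6 also scored highest for Lamp5 markers but were left unnamed, and they held 2193 and 648 CPM. At the other end, 281 nuclei led by Mctp2 and Unc5b held 21.7 CPM of Grin2a (18.7 ± 10.8 over replicates), under the microglial mean, with 1703 CPM of Grin2b and 215 CPM of Grin1. Subclusters led by Gm32647 and by Stk32a and Crh held 136 and 150 CPM.

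Grin2b varied less among GABAergic subclusters, from 983 to 2280 CPM pooled. It was highest in the Vip-like subcluster (Vip marks interneurons that mainly contact other interneurons), at 2276 ± 81.9 CPM against 1429 in the rest of the class and above it in 6 of 6 replicates, with Grin2a there at 605 ± 54.9 CPM. Unnamed subclusters led by Stk32a and Crh and by Itga8, which also scored highest for Vip markers, held 1370 and 1534 CPM of Grin2b pooled. The unnamed Syt6 subcluster, which scored highest for Cck markers, held 2185 CPM. The 3 Lamp5-like subclusters held 1373, 983 and 1117 CPM of Grin2b, of which the last 2 were the lowest of the 19.

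Grin3a was highest in the 3 Sst-like subclusters (Sst marks dendrite-targeting interneurons), at 742, 791 and 898 CPM pooled. In the largest of them it was 753 ± 76.1 CPM against 191 in the rest of the class, above it in 6 of 6 replicates, while the smallest was 24 nuclei. The Pvalb-like subcluster (fast-spiking interneurons) held 80.1 CPM of Grin3a and 439 CPM of Grin2a, and the Vip-like one 50.6 CPM of Grin3a. Unnamed subclusters led by Mctp2 and Unc5b, by Gm32647 and by Ndst4 also scored highest for Pvalb markers. In that order they held 138, 88.4 and 333 CPM of Grin3a and 21.7, 136 and 656 CPM of Grin2a. Grin1 stayed between 180 and 431 CPM, with the highest value in 48 nuclei led by Foxp2 and Meis2, and Grin2d between 27.2 and 59.6 CPM, with its highest value in the first Lamp5-like subcluster.

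**Figure D3:**
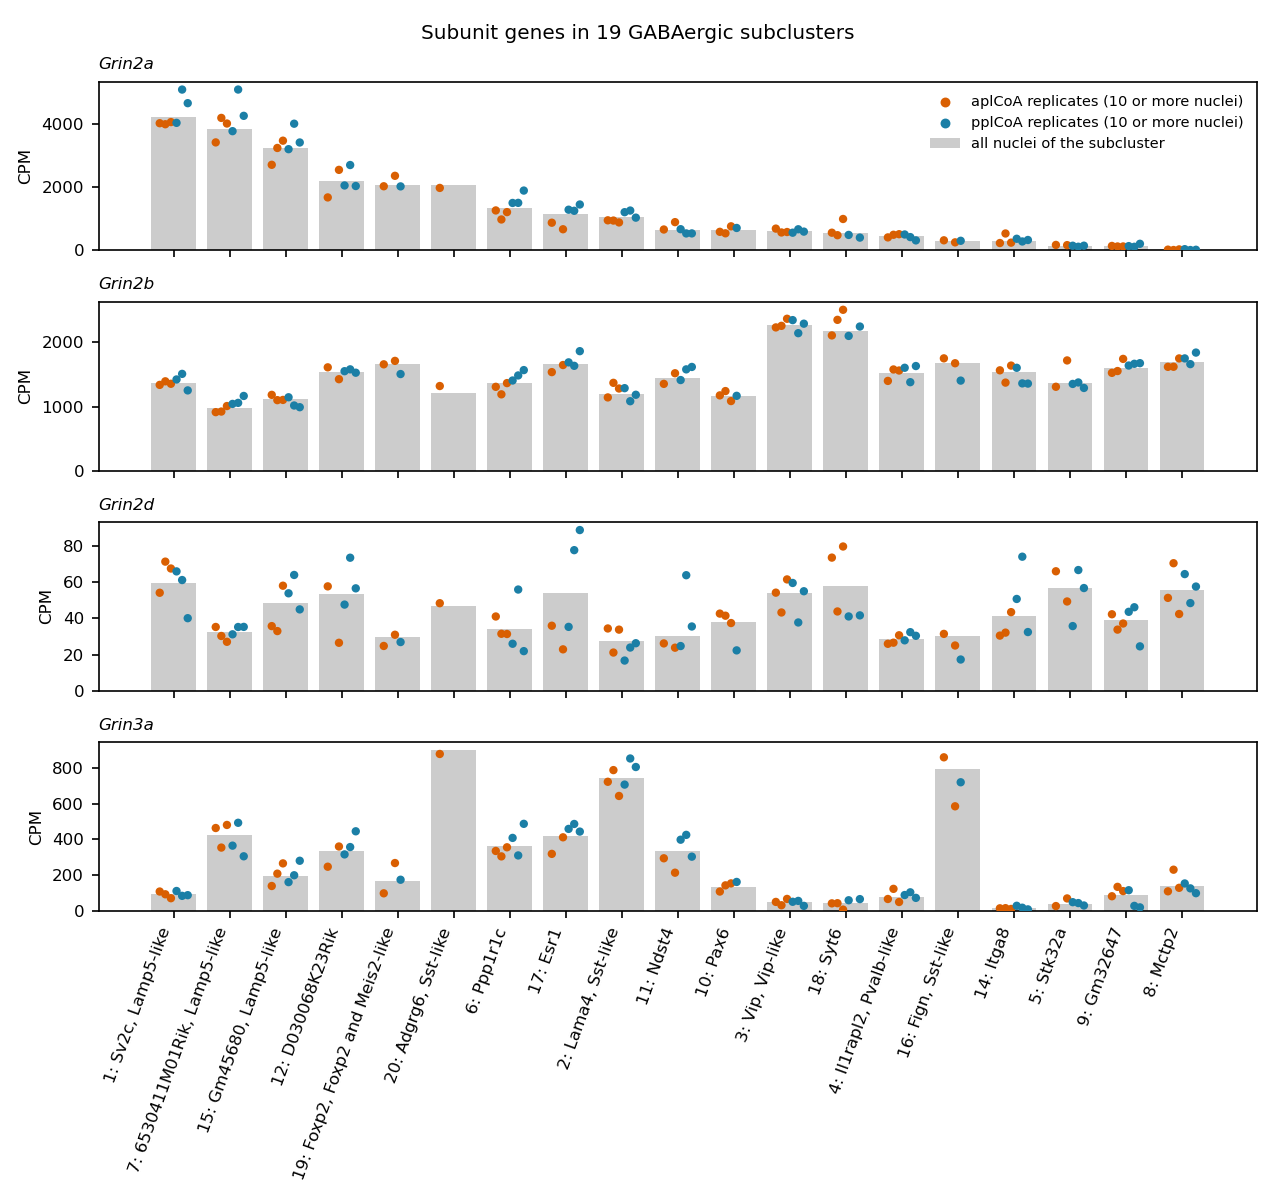
Levels (CPM) of subunit genes in the 19 GABAergic subclusters, which are named by leading gene and marker class, with grey bars for all nuclei pooled and 1 point per replicate that held at least 10 nuclei. Grin2a is highest in the Lamp5-like subclusters and lowest in the Mctp2 subcluster, and Grin3a is highest in the Sst-like ones.

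Astrocytes fell into 4 clusters, again made without the 7 genes and described without a test. Grin2c was 322, 292 and 289 CPM pooled in clusters 1, 4 and 13 but 46.3 CPM in cluster 17, which was led by Myoc and Gfap and held 1266 nuclei. Over replicates cluster 17 ranged from 30.0 to 74.5 CPM and cluster 4 from 265 to 359. Grin3a was split otherwise, with 191 and 145 CPM in clusters 1 and 4, 675 CPM in cluster 13 (led by genes including Tnc) and 847 CPM in cluster 17. All 6 replicates of Grin3a in cluster 17 (753 to 1230 CPM) were above all those of OPCs as a class (542 to 634). Grin2b varied less, at 414, 427, 527 and 409 CPM, with cluster 13 above the rest of the class in 6 of 6 replicates (513 ± 56.7 against 407 CPM).

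**Figure D4:**
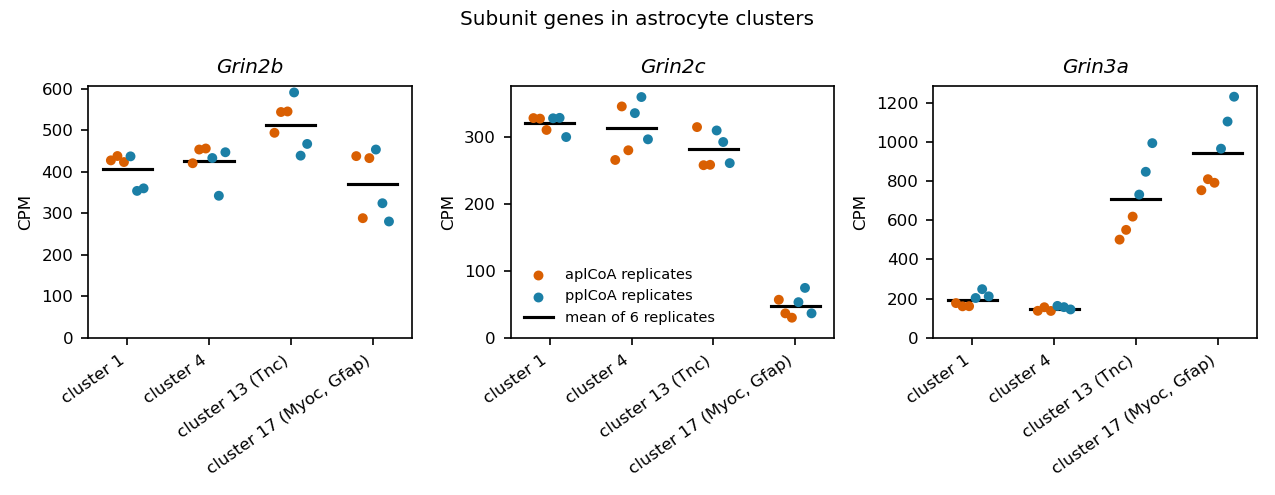
Levels (CPM) of subunit genes in the 4 astrocyte clusters, 1 point per replicate, marked by domain. Grin2c drops in the Myoc and Gfap cluster, in which Grin3a is highest, and Grin2b varies less, with its highest mean in cluster 13.

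The third comparison, the one the study was built for, was between domains. In glutamatergic neurons Grin2a and Grin2b were lower in aplCoA, and the other members did not pass the test. Grin2a was 1219, 1274 and 1246 CPM in aplCoA and 1494, 1709 and 1540 CPM in pplCoA. Grin2b was 2159, 2246 and 2333 CPM in aplCoA and 2483, 2697 and 2770 CPM in pplCoA. The domains did not overlap for these 2 of 5 tested members, where 43.1% of all 9693 genes did not overlap and 11.9% were lower in every aplCoA replicate. The edgeR log2 fold change (aplCoA minus pplCoA) was −0.42 ± 0.08 for Grin2a, adjusted p 0.0107, and −0.32 ± 0.08 for Grin2b, adjusted p 0.0312. Of all genes 20.6% were called (10.6% lower in aplCoA), 967 higher and 1025 lower, or 1508 and 690 without the TMM factor.

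Of these calls, that of Grin2b rests on single pools. Its adjusted p by edgeR was 0.0794 when aplCoA pool 1 was left out, 0.0779 for aplCoA pool 2, 0.117 for pplCoA pool 2 and 0.13 for pplCoA pool 3, with log2 fold changes of −0.28 to −0.33. Grin2a kept its call without each pool in turn (adjusted p 0.00419 to 0.0498). Grin1 (0.04 ± 0.10), Grin3a (−0.05 ± 0.09, or 0.03 without the TMM factor) and Grin2d (−0.21 ± 0.19) had adjusted p of 0.816, 0.751 and 0.48.

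The domains also differed in the kinds of glutamatergic nuclei they held. Slc17a6 nuclei made up 22.1%, 15.4% and 17.3% of the class in aplCoA and 5.94%, 1.63% and 1.12% in pplCoA, and they are the kind with less Grin2a and Grin2b. Within Slc17a7 nuclei the log2 fold changes were −0.19 ± 0.07 for Grin2a (adjusted p 0.121 by edgeR) and −0.18 ± 0.07 for Grin2b (adjusted p 0.153), and the domains still did not overlap. Among the 10 glutamatergic subclusters with at least 10 nuclei in every replicate, Grin2a was lower in aplCoA in 7, with a median log2 difference of −0.08. Grin2b was lower in 5 of 10, with a median of −0.00. Grin3a was lower in 7 of 10, with a median of −0.27 and a range of −1.27 to 2.05. The 10 leave out the subclusters led by Rxfp1 and Foxp2, by Vwa5b1, by Ebf1 and Meis1, and by Ebf2, mostly of aplCoA. The Moxd1 subcluster of pplCoA is also left out, while the 158 nuclei led by Ndnf and Trp73 count as 1 of the 10. The share over all genes was not computed for these counts. Subclusters with Fign, Etv1 or Sim1 among their leading genes were kept in the class. The study places types with these markers in regions beside the plCoA, for Fign as likely. How much of the class-wide difference the kinds of nuclei carry was not tested.

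Markers of other classes moved between domains in the same glutamatergic sums. The summed level of the 5 OPC markers was 567 to 604 CPM in aplCoA and 221 to 435 in pplCoA, almost all of it Lhfpl3 (559 to 597 against 213 to 425 CPM), with Pdgfra and Cspg4, which define OPCs, at 0.532 to 1.68 CPM. That of the 5 GABAergic markers was 18.6 to 36.1 against 6.68 to 16.5 CPM, that of the 5 NFOL markers 10.2 to 12.7 against 7.11 to 9.73 CPM, and that of the 5 VLMC markers 4.16 to 6.85 against 8.29 to 20.4 CPM. Of the VLMC markers, Dcn (0.818 to 0.989 against 2.23 to 13.7 CPM) and Col1a1 (0.982 to 3.38 against 3.91 to 5.58) were higher in pplCoA. Slc6a13 was lower there (0.587 to 1.27 against 0.250 to 0.535 CPM), and Lum and Col1a2 overlapped. Dcn was also a leading gene of the Moxd1 glutamatergic subcluster, almost wholly of pplCoA. The part of these markers in the result was not tested. In free RNA, Grin2a averaged 624 CPM in aplCoA and 743 in pplCoA, and Grin2b 1168 and 1354 CPM.

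Within Slc17a7 nuclei, none of the 5 tested members passed 0.05 by edgeR, where 8.88% of 9769 genes did (410 higher and 457 lower, or 563 and 355 without the TMM factor). By unadjusted p under 0.05, 4 of the 5 did, beside 2506 of the 9769 genes. The largest difference was in Grin3a, at 96.7, 61.2 and 103 CPM in aplCoA and 120, 135 and 131 CPM in pplCoA, which did not overlap, with a log2 fold change of −0.61 ± 0.16 and adjusted p 0.055. Grin2d was 12.2, 8.56 and 11.4 CPM against 10.3, 17.5 and 18.6 CPM, which overlapped (−0.55 ± 0.22, adjusted p 0.164). Grin3a was called by DESeq2 (adjusted p 0.00349), and by edgeR with aplCoA pool 3 left out (−0.74, adjusted p 0.0316) or pplCoA pool 1 left out (−0.66, adjusted p 0.0442), and the last of these also called Grin2d (−0.78, adjusted p 0.00976). In all, 3 of 5 members had domains that did not overlap, all lower in aplCoA, against 32.1% of all genes and 10.5% that were lower in every aplCoA replicate. The summed OPC markers were 373 to 429 CPM in aplCoA Slc17a7 nuclei and 215 to 373 in pplCoA, and the VLMC ones 4.09 to 7.24 and 8.58 to 20.6 CPM, and their part was not tested.

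Within Slc17a6 nuclei, again 0 of 5 members passed by edgeR, where 0.528% of 9288 genes did (27 higher and 22 lower, or 32 and 17 without the TMM factor), and 1 did by unadjusted p under 0.05, beside 1274 of the 9288 genes. Grin2a had a log2 fold change of −0.67 ± 0.19 (adjusted p 0.124) and Grin2b −0.26 ± 0.14 (adjusted p 0.427), and for both of them the domains did not overlap, as for 21.6% of all genes, with aplCoA lower in every replicate for 6.96%. Grin3a was 226, 245 and 268 CPM in aplCoA and 237, 130 and 79.6 CPM in pplCoA, with the low values in the pools of 39 and 25 nuclei (0.48 ± 0.23, adjusted p 0.381). With pplCoA pool 1 left out, which leaves those 2 thin pools, edgeR called Grin2a (−0.90, adjusted p 0.00186) and Grin3a (1.07, adjusted p 0.0096). Its sign was thus opposite to that in Slc17a7 nuclei, and the difference between the kinds was not tested.

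GABAergic neurons showed no called member, where 9.97% of 8736 genes were called by edgeR (409 higher and 462 lower, or 563 and 347 without the TMM factor), and 1 of 5 had an unadjusted p under 0.05, beside 1922 of the 8736 genes. Grin3a was 270, 235 and 251 CPM in aplCoA and 262, 312 and 281 CPM in pplCoA, which overlapped (−0.22 ± 0.08, adjusted p 0.103, or −0.28 and 0.0468 by edgeR with pplCoA pool 1 left out). Grin2a was 1196, 1312 and 1356 against 1285, 1637 and 1305 CPM, also overlapping (−0.18 ± 0.09, adjusted p 0.277). Grin2b (−0.09 ± 0.06), Grin2d (−0.07 ± 0.11) and Grin1 (0.00 ± 0.09) had adjusted p of 0.471, 0.788 and 0.986. No member had domains apart, against 27.7% of all genes. The summed astrocyte markers were 119 to 136 CPM in aplCoA GABAergic neurons and 109 to 114 in pplCoA, and the OPC ones 325 to 355 and 373 to 391 CPM, and their part was not tested. Most of the astrocyte sum was Slc1a2 (93.3 to 95.7 against 83.3 to 86.6 CPM). Most of the OPC sum was Lhfpl3 (278 to 313 against 335 to 351 CPM).

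The difference between the classes in their domain effect was tested as an interaction. Grin2a gave 0.22 ± 0.08 (GABAergic minus glutamatergic domain difference, adjusted p 0.154 by edgeR) and Grin2b 0.21 ± 0.08 (adjusted p 0.213). With pplCoA pool 1 left out Grin2b passed (0.28, adjusted p 0.0269 by edgeR). Grin3a gave −0.19 ± 0.08 (adjusted p 0.246). None of the 5 passed, where 4.88% of 9701 genes did, so a domain difference peculiar to glutamatergic neurons was not shown, and 3 of 5 had an unadjusted p under 0.05, beside 1830 of the 9701 genes.

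**Figure D5:**
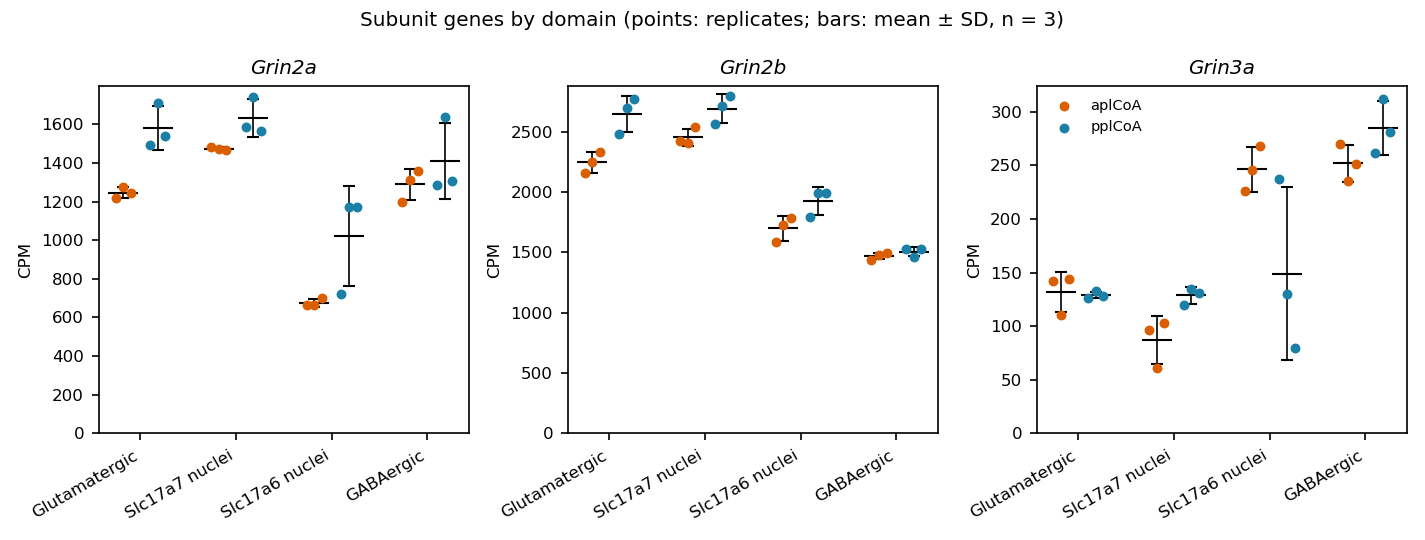
Levels (CPM) of subunit genes in aplCoA and pplCoA for glutamatergic neurons, Slc17a7 nuclei, Slc17a6 nuclei and GABAergic neurons, with points for replicates and bars for mean ± SD (n = 3). For Grin2a and Grin2b the domains do not overlap in glutamatergic neurons, Slc17a7 nuclei and Slc17a6 nuclei and overlap in GABAergic neurons, and for Grin3a they are apart in Slc17a7 nuclei alone of the 4.

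The ratio of Grin2a to Grin2b did not separate the domains. In glutamatergic neurons it was 0.565, 0.567 and 0.534 in aplCoA and 0.602, 0.634 and 0.556 in pplCoA, which overlapped (exact permutation test, two-sided, p 0.3). The corresponding exact p was 0.8 in GABAergic neurons, 0.8 in Slc17a7 nuclei and 0.2 in Slc17a6 nuclei, and 3 pools against 3 cannot give a p under 0.1. Between transporter kinds the ratio averaged 0.454 in Slc17a6 and 0.603 in Slc17a7 nuclei (exact sign-flip test, p 0.0625).

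Among glia, astrocytes had the clearest domain values. Grin3a was 261, 318 and 334 CPM in aplCoA and 388, 392 and 364 CPM in pplCoA, without overlap, with an edgeR log2 fold change of −0.35 ± 0.09 and adjusted p 0.108. Grin2c was 276, 276 and 250 CPM against 297, 311 and 284 CPM, also without overlap (−0.18 ± 0.07, adjusted p 0.295). Neither was called, nor were Grin2b (0.08 ± 0.09) and Grin2a (−0.05 ± 0.30), where 0.538% of 5020 genes were, and 20.7% did not overlap (10.7% lower in every aplCoA replicate). DESeq2 and the edgeR likelihood ratio test called Grin3a (adjusted p 0.0251 and 0.0247).

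Of the 4 astrocyte clusters, 3 kept the domains apart for Grin3a. The clusters come from the same 6 pools, so they do not repeat the comparison. The share of all genes without overlap was not computed per cluster, and was 20.7% in astrocytes as a class. In cluster 1 Grin3a was 177, 161 and 162 CPM in aplCoA and 203, 248 and 212 in pplCoA. In cluster 13 Grin3a was 501, 551 and 619 CPM in aplCoA and 731, 847 and 994 in pplCoA, and in cluster 17 it was 753, 810 and 791 against 965, 1104 and 1230 CPM, both without overlap. In cluster 4 it was 138, 156 and 137 against 163, 157 and 145 CPM, which overlapped. The summed VLMC markers in astrocytes were 15.9 to 23.8 CPM in aplCoA and 12.4 to 15.8 in pplCoA, and the endothelial ones 3.63 to 4.13 and 4.39 to 5.50 CPM. Their part was not tested.

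OPCs, the whole class with the highest mean of Grin3a, held 542, 629 and 563 CPM in aplCoA and 633, 634 and 604 CPM in pplCoA. These overlapped, and the edgeR log2 fold change was −0.15 ± 0.08 with adjusted p 0.322, where 6.41% of 6190 genes were called. The summed astrocyte markers in OPCs were 534 to 562 CPM in aplCoA and 563 to 632 in pplCoA, and their part was not tested. In NFOLs Grin3a was 213, 82.4 and 171 against 100, 127 and 209 CPM (0.06 ± 0.30, adjusted p 0.976). No member passed in MOLs (2.54% of genes called), VLMCs (0.0174%), microglia, ABCs or NFOLs either, and the last 3 had 0 genes called by edgeR, with 258, 399 and 661 genes at an unadjusted p under 0.05 and 1, 5 and 0 called by DESeq2.

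Genes that work with the receptor were followed as lists beside the members. Of 4 AMPA receptor subunit genes, which carry fast excitation, 2 were lower in aplCoA glutamatergic neurons, Gria1 (−0.38) and Gria3 (−0.36), and the list median was −0.17 against 0.00 over all genes. Of 7 kainate and delta receptor genes, Grik4 (1.02) was higher and Grik3 (−0.87) was lower. Of 15 tested postsynaptic scaffolds, 3 were lower (Shank2 at −0.44, Lin7a at −0.39, Dlgap2 at −0.34) and none higher. All these and the following values are edgeR log2 fold changes of called genes, and no sign of those named turned without the TMM factor. Without it 2 of the 15 list calls in this comparison were lost, Grik3 among them (−0.78, adjusted p 0.0613 by edgeR).

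Among 20 signalling partners, Actn2 (−0.37) and Kalrn (−0.33) were lower. Among 12 trafficking and auxiliary genes, Cnih3 (−0.69), Neto2 (−0.35) and Neto1 (−0.35) were lower, and of the 3 tested genes that supply the co-agonists glycine and D-serine none was called. These shares, from 0 of 3 to 2 of 4, compare with the 20.6% over all genes. In GABAergic neurons Gria1 (−0.40) and Grik4 (−0.43) were lower in aplCoA. In the interaction, Grik4 (−1.49) passed below 0 and Homer2 (0.35) and Shank2 (0.32) above it. Within Slc17a7 nuclei Cnih3 (−0.71), Gria1 (−0.44) and Lin7a (−0.29) were lower in aplCoA, and in Slc17a6 nuclei no list gene was called.

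Between neuron classes the scaffolds moved mainly 1 way. In GABAergic neurons 12 of 15 were lower, led by Dlg1 (−1.76), Shank2 (−1.47), Homer1 (−1.34) and Lin7b (−0.92), and 1 was higher, Homer2 (0.95), where 34.8% of all genes were lower and 38.4% higher. The list median was −0.63 against 0.03 over all genes. Of 20 signalling partners 12 were lower, led by Camk2d (−1.79), Kalrn (−1.35), Camk2a (−1.35), for the kinase that the receptor's calcium activates, and Ppp3ca (−1.31), and Fyn (0.60) and Camk2g (0.37) were higher.

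All 4 AMPA genes were called, where 73.2% of all genes were, with Gria4 (1.34) and Gria1 (0.80) higher and Gria3 (−0.79) and Gria2 (−0.40), whose subunit limits calcium entry, lower. Of 7 kainate and delta genes 4 were higher (Grik3 1.98, Grik1 1.95, Grik4 1.17, Grik2 0.46) and 1 lower (Grik5 −0.54). Of 12 trafficking and auxiliary genes, 5 were higher, led by Neto2 (1.09), Cacng2 (1.03), Neto1 (0.48) and Lrp8 (0.48), and 6 lower, led by Cnih3 (−1.60), Nlgn1 (−1.19), Kif17 (−0.44), whose motor carries GluN2B, and Pacsin1 (−0.36). Of 4 tested co-agonist genes 3 were higher, the transporter genes Slc1a4 (1.66) and Slc38a1 (0.95), and Srr (0.18), for the enzyme that makes D-serine.

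Between transporter kinds, Slc17a6 nuclei had 10 of 15 scaffolds lower, led by Homer2 (−1.03), Dlgap2 (−0.87), Shank2 (−0.61) and Lin7a (−0.57), and 1 higher, Dlg2 (0.38), where 22.3% of all genes were lower and 26.2% higher. The list median was −0.43 against 0.03 over all genes. Of the signalling partners 12 of 20 were lower, led by Camk2a (−1.19), Actn2 (−0.76), Prkca (−0.58) and Kalrn (−0.52), and 3 higher, Nos1 (1.36), Camk2g (0.65) and Rasgrf1 (0.31). Grik4 (2.52), Grik1 (0.73) and Grid1 (0.60) were higher and Grik5 (−0.27) and Grik2 (−0.20) lower, the last 2 not called without the TMM factor, and of the AMPA genes only Gria3 (−0.49) was called. Of the auxiliary genes Ephb2 (0.66), Cacng2 (0.58), Lrp8 (0.43) and Grina (0.25) were higher and Neto1 (−0.64) and Pacsin1 (−0.28, not called without the TMM factor) lower, and Slc38a1 (0.64) was higher.

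Genes whose level over the 11 classes was most like that of a member were ranked by Pearson's r of log2(mean CPM + 1), as a description over classes that share libraries. For Grin1 these were Cacna1b (0.969), A230004M16Rik (0.964) and Cdh12 (0.963). For Grin2a they were Nos1 (0.984), Rbfox3 (0.983) and 4933413L06Rik (0.978), and for Grin2b Gm14329 (0.972) and Gm14330 (0.965), which overlap it on the other strand, and Gm1043 (0.961). For Grin2c they were Rpe65 (0.990), Etnppl (0.990) and Prdm16os (0.988). For Grin2d they were Slc1a6 (0.938), Cacna2d3 (0.933) and Lmbr1 (0.931), and for Grin3a 4930480K15Rik (0.981), Gm29514 (0.973) and 1700027H10Rik (0.968). The 11 classes include the 38 mural cells, whose Grin2c value rested on 5 UMIs.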

How the data were processed

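The deposited files hold UMI counts per barcode as the authors made them: reads were aligned to mm10 with Cell Ranger 5.0.0 per the labels, with intronic reads counted, and the matrices were unfiltered. Barcodes with at least 1000 genes were kept, those over 5 median absolute deviations of UMIs or 5 interquartile ranges of mitochondrial or ribosomal share were removed per library, and doublets were called by Scrublet at 1% per 1000 nuclei (scanpy 1.11.5). Pearson residuals (theta 100) of 5000 variable genes, 50 components, 15 neighbours and Leiden clustering (resolution 1.0) gave the classes, with the 7 genes left out. Summed counts per replicate were tested with edgeR 4.0.16 (quasi-likelihood, TMM, R 4.3.3) over genes with a UMI in 10% or more of either group's nuclei, called at a Benjamini-Hochberg adjusted p under 0.05. Libraries held 50812605 to 129624583 UMIs in all, and floors (3 counts) cover counting error only. The test was checked on simulated counts. DESeq2 1.42.0, the edgeR likelihood ratio test, a marker gate and left-out replicates were alternatives. The members and gene lists were chosen with earlier results of these data known. Named from each list were the called genes of largest change, at most 4 per direction, and some called list genes are not reported here. Replicate numbers did not pair the samples (correlations of deviations −0.17 to 0.11). The annotation was GENCODE of mm10 (GRCm38).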

Additional observations from a re-analysis of the deposited data

Results flagged for a closer look

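Of 44 groups of 6 replicates examined for a single far value, 4 had one, and chance flags about 1 group in 20. In GABAergic neurons all 3 came from pplCoA replicate 2. Its Grin2a stood at 1637 CPM (the others at 1196 to 1356), its Grin2d at 48.9 CPM (38.7 to 42.5) and its ratio of Grin2a to Grin2b at 1.12 (0.831 to 0.909). Lamp5-like nuclei, in which Grin2a was highest, made up 18.6% of its GABAergic nuclei against 16.1% to 25.6% in the others, and the cause was not tested. In ABCs, Grin2b of aplCoA replicate 1 stood at 102 CPM (the others at 21.3 to 44.7). The same pool had 131 CPM of Grin2b in microglia, the highest of the 6.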

How the results depend on the processing

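In glutamatergic neurons the 2 called members became 0 at an adjusted p under 0.01 with a 1.5-fold change, 1 with aplCoA replicate 1 taken from library 2 alone, and 1 to 2 with a replicate left out. Calls over all genes then went from 1992 to 453 at the stricter threshold, 3376 without a filter on low genes and 788 to 2394 with a replicate left out. In Slc17a7 nuclei the 0 called members became 1 (Grin3a) by the likelihood ratio test, by DESeq2, without a filter and at 2 UMIs or more, and 0 to 2 with a replicate left out, while calls over all genes, 867 at first, were 1492, 1418, 1879 under the first 3, 0 at the stricter threshold, 341 and 460 with 1 library of aplCoA replicate 1, 576 with the replicate block and 0 to 1415 with a replicate left out. In Slc17a6 nuclei they became 1 by the likelihood ratio test, 2 without a filter and 0 to 2 with a replicate left out (all genes 49, then 458, 501 and 0 to 385, with 150 by DESeq2, 144 with the block, 13 at 2 UMIs or more, and 3 and 0 with 1 library). In astrocytes they became 1 (Grin3a) by the likelihood ratio test, by DESeq2 and without a filter (all genes 27, then 232, 195 and 731, with 219 with the block, 0 at the stricter threshold and 0 to 257 with a replicate left out), in GABAergic neurons 0 to 1 with a replicate left out, and in the interaction 0 to 1 without a replicate. Calls over all genes then went from 871 to 281 to 886 in GABAergic neurons (215 at the stricter threshold, 1434 without a filter, 113 with library 1 alone), from 473 to 127 to 995 in the interaction (1255 without a filter) and from 397 to 85 to 529 in OPCs (89 at the stricter threshold, 703 without a filter). Between GABAergic and glutamatergic neurons the 5 called members became 3 at the stricter threshold (7105 genes, then 2809, or 11761 without a filter), where transporter kinds went from 4761 to 1775 genes. The causes were not tested. Small domain differences turned sign. Grin3a in glutamatergic neurons was 0.034 without the TMM factor, Grin1 in GABAergic neurons −0.0045 with library 2 alone, and Grin2b in Slc17a6 nuclei 0.0032 at 2 UMIs or more. With a replicate left out, log2 fold changes ranged from −0.0074 to 0.17 for Grin2b in astrocytes, −0.066 to 0.081 for Grin1 and −0.14 to 0.037 for Grin2d in GABAergic neurons, −0.053 to 0.13 for Grin1 and −0.12 to 0.051 for Grin3a in glutamatergic neurons, −0.012 to 0.18 for Grin1 in Slc17a7 nuclei, −0.21 to 0.35 for Grin2d in Slc17a6 nuclei and −0.13 to 0.19 for Grin2d in the interaction. The log2 ratio of Grin2a to Grin2b then ranged from −0.16 to 0.047 between domains in GABAergic neurons, −0.071 to 0.029 in Slc17a7 nuclei and 0.61 to 0.68 between neuron classes, where 5 replicates allow no exact p under 0.0625. The GABAergic domain difference in the log2 ratio of Grin2a to Grin2b was 0.039 from thinned nuclei. Of 563 alternative values of members' fold changes 517 kept direction and side of the threshold. With the replicate block Grin2d in Slc17a6 nuclei was 0.022, 2 members stayed called in glutamatergic neurons (1842 genes) and 0 in GABAergic neurons (704 genes). Without the block between neuron classes, Grin2a was −0.23 with adjusted p 0.0965. Without thinning, shares of nuclei with a UMI were 93.0% for Grin1, 98.2% for Grin2a and 99.7% for Grin2b in glutamatergic neurons, 55.6% for Grin2c in astrocytes, 28.3% for Grin2d in GABAergic neurons and 83.9% for Grin3a in OPCs. Depth limits Grin3b, Grin2c outside astrocytes, and the pplCoA Slc17a6 nuclei, which number 39 and 25 in 2 pools. Without the TMM factor 5 of 50 called list genes between neuron classes, 7 of 40 between transporter kinds, 2 of 15 between domains in glutamatergic neurons and 1 of 4 in GABAergic neurons lost their call.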
